A study of Danio rerio with 10 samples.

Results

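The solute carriers of amino acids and neurotransmitters form 8 families of membrane proteins, numbered slc1, slc3, slc6, slc7, slc32, slc36, slc38 and slc43. They were taken from the deposited gene tables by the family number in the gene name, leaving out the creatine transporter slc6a8. Of the 32265 genes listed, 82 carried such a name, and 74 of these had an FPKM (a read density, in fragments per kilobase of transcript after division by library size) of at least 1 in 1 or more of 7 conditions. The remaining 8 stayed below that limit everywhere: SLC6A13 reached an FPKM of 0.741, slc6a14 0.619, SLC7A8 (1 of many) 0.436, slc6a4b 0.308, slc7a14b 0.242, slc1a2a 0.202, slc1a8b 0.138 and slc6a1l 0.114. The genes just inside the limit were slc7a10b with a highest FPKM of 1.25, slc6a3 with 1.58 and slc38a8b with 1.62. The name rule also took slc7a6os, a gene that abuts slc7a6 and is named as lying on its opposite strand, which is not itself a carrier.

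All fish were AB zebrafish carrying a human TPM3 transgene driven by the MLC2 (myosin light chain 2) promoter, together with a heart-specific myl7:EGFP marker. TPM3 encodes a tropomyosin of slow muscle fibres. The controls expressed TPM3(WT), so they carried the transgene too, and the mutants expressed TPM3(E151A) or TPM3(E151G). No non-transgenic library was analysed here, and which of the independent transgenic lines was sequenced was not stated. Adult muscle was taken at 6 months, with 2 libraries per genotype that the authors combined into 1 FPKM per gene. For embryos there was 1 library each of the 3 genotypes, and a further library of TPM3(E151G) kept in l-carnitine (10 µM), a molecule that carries fatty acids into mitochondria. The labels call these whole embryos of 2 days, whereas the study's methods speak of embryo muscle and of treatment that began at 28 hpf and ended at 7 dpf, and it was not settled here which describes the sequenced material. With 1 value per condition there was no spread between replicates, so no test was run and every ratio below compares single values.

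As background, slc1 and slc6 proteins couple uptake to sodium and clear glutamate, GABA, glycine and monoamines from around nerve endings, while some slc6 members absorb neutral amino acids in kidney and gut. An slc3 protein is a heavy chain that brings an slc7 light chain to the cell surface, where the light chain exchanges 1 amino acid for another. The slc38 proteins take up glutamine and other neutral amino acids with sodium, and the slc36 proteins move amino acids with protons. Of slc43, the slc43a1 and slc43a2 proteins let branched-chain and aromatic amino acids cross by facilitated diffusion. slc32a1 loads GABA and glycine into synaptic vesicles. Roles given below are known mainly from mammals. In bulk tissue, fewer cells of a type and less RNA per cell cannot be told apart.

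Summed over all genes and divided by 1000, the adult FPKM values came to 712.3 for TPM3(WT), 759.4 for TPM3(E151A) and 1404 for TPM3(E151G), and the embryo values to between 575.4 and 739.9. When each condition was scaled to equal sums, the all-gene median of the log2 ratios shifted by -0.78 for adult TPM3(E151G) against TPM3(WT), by -0.72 between the adult mutants, by -0.18 and -0.32 for TPM3(E151A) and TPM3(E151G) embryos against TPM3(WT), and by 0.26 for treated against untreated TPM3(E151G) embryos. Medians are therefore also given relative to that of all genes. All 12 markers of skeletal muscle had an FPKM of at least 1 in every condition, with sums from 30548 to 56645. Adult specimens also held markers of other tissues in unequal amount. Markers of oocytes summed to 2203 FPKM in TPM3(WT), to 533.2 in TPM3(E151A) and to 369.3 in TPM3(E151G), those of testis to 56.1, 258.6 and 10.8, those of erythrocytes to 752.4, 2847 and 1313, and those of leukocytes to 161.7, 224 and 340.7. Markers of liver summed to 3.54 in TPM3(WT), to 34.1 in TPM3(E151A) and to 31.6 in TPM3(E151G). These adult mixtures move with the genotype, and their part in the results below was not tested except where a value is given.

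The levels of the 74 genes differed between adult muscle and embryos. Age and, by the labels, tissue differ together here, so stage cannot be told apart from the tissues present. In adult TPM3(WT) muscle 48 reached an FPKM of 1 and 13 an FPKM of 10, with a median of 2.06, and in TPM3(WT) embryos 67 and 24 did so, with a median of 5.67. Adult and embryo tables may have been normalised separately, so these levels stand side by side without a ratio. Between the TPM3(WT) conditions 43 genes reached an FPKM of 1 in both, 24 in embryos only, 5 in adults only and 2 in neither. The glial glutamate transporter slc1a2b was the highest of them in every embryo library, at 183 FPKM in TPM3(WT), at 148 in TPM3(E151A), at 169 in TPM3(E151G) and at 199.9 with l-carnitine, and stood at 2.34, 1.23 and 5.34 in the 3 adult genotypes. Its relative slc1a3b ran from 31.1 to 41.7 in embryos and did not exceed 0.115 in adults. slc32a1, the vesicular transporter of inhibitory neurons, had embryo levels of 22.69 to 31.98 and adult levels of 0.296 to 1.098. The reverse held for slc6a19b, a neutral amino acid transporter of kidney and gut, with an FPKM of 23.6 to 92.7 in adults and at most 0.183 in embryos. Carriers of general metabolism were present at both stages: slc38a2, which takes up glutamine and alanine in many cell types, lay between 34.0 and 51.5 in all 7 conditions, and slc3a2a, a heavy chain, between 18.3 and 33.8. Zebrafish keep several of these genes as pairs of paralogs. In 5 of 14 such pairs the copy with the higher FPKM in TPM3(WT) was not the same in adults and embryos, among them slc6a11a and slc6a11b, GABA transporters with 2.35 and 1.09 in adults and 4.52 and 41.3 in embryos. Some of the 5 rest on small differences. In embryos slc6a6a and slc6a6b had 3.464 and 3.428, and slc43a3a and slc43a3b 3.555 and 3.402. Both slc1a7 copies were below an FPKM of 1 in adults.

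**Figure D1:**
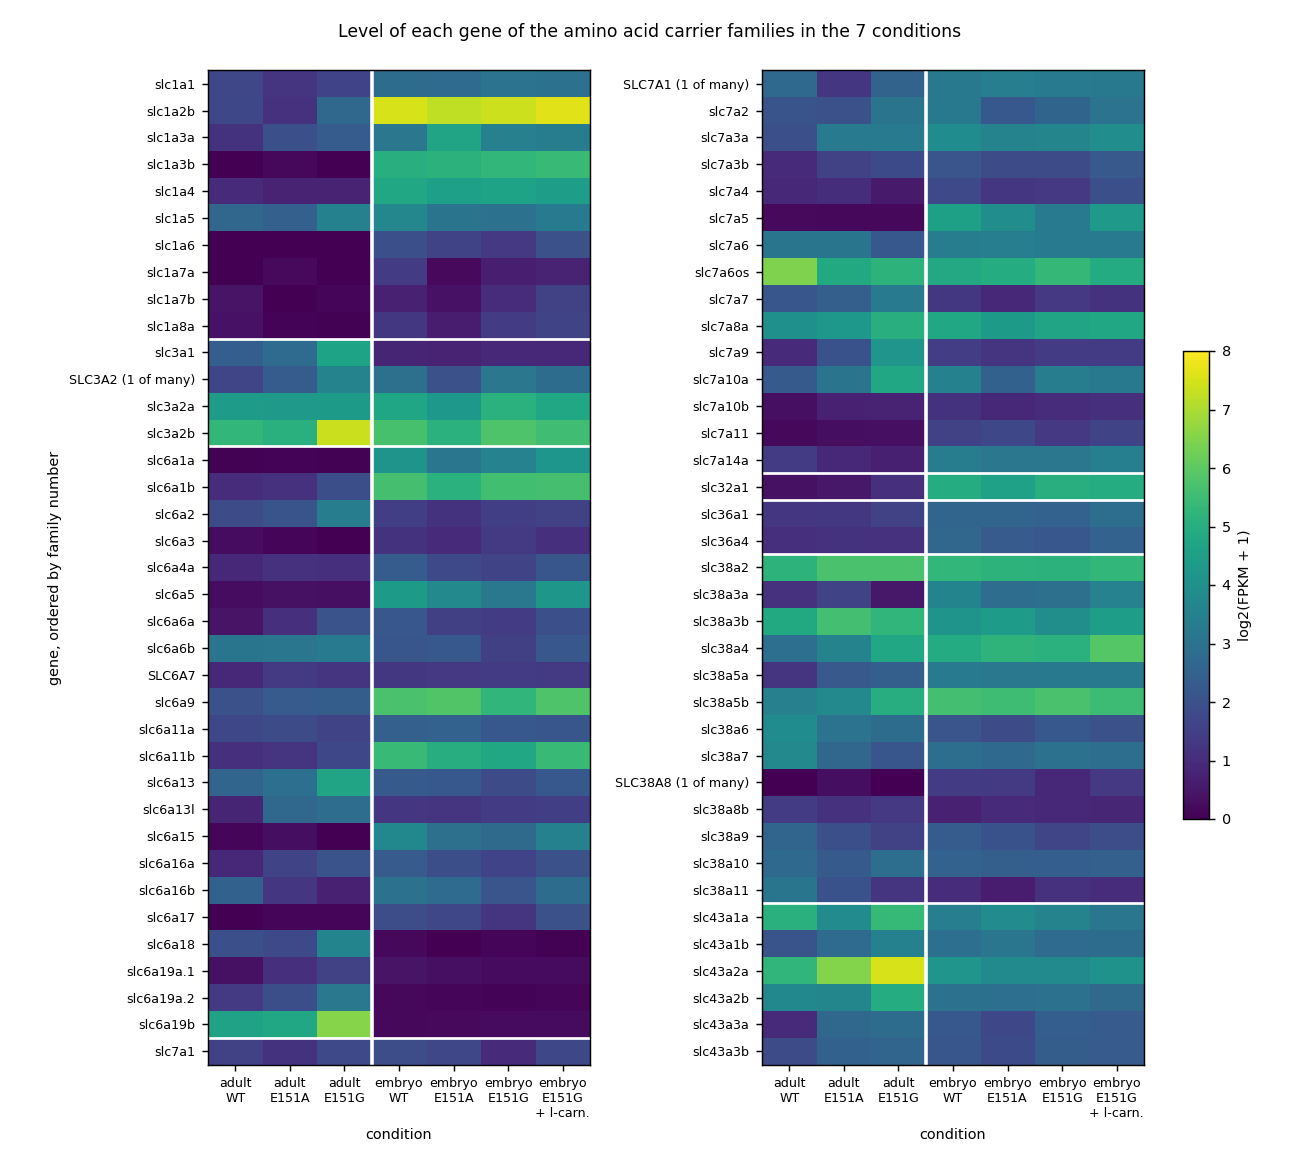
Heat map of log2(FPKM + 1) for the 74 genes (vertical, ordered by family number, white lines between families) in the 7 conditions (horizontal, white line between adults and embryos), where each cell is 1 value. slc1a2b is the brightest row in embryos (FPKM of 148 to 199.9), and slc43a2a (182) and slc3a2b (162) are the brightest cells of adult TPM3(E151G).

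In adult TPM3(E151G) muscle most carriers had higher FPKM values than in TPM3(WT). Of 58 members compared (those at 1 FPKM or above in either genotype), 44 were higher and 14 lower, with a median log2 ratio of FPKM + 1 of 0.86. The median of all genes was -0.14, so the members lay 1.00 above it, and 0.95 to 1.04 above it under 3 other scalings. The 321 other solute carriers gave a median of 0.39 over 232 compared. By 2-fold or more, 24 members were higher, where 17.4% of all 16572 genes compared were, and 6 were lower, where 25.5% of all genes were. Of the 58, 45 reached an FPKM of 1 in both genotypes, 10 in TPM3(E151G) only and 3 in TPM3(WT) only. Among the 45 the median was 0.90, with 18 higher and 5 lower by 2-fold or more, against a median of -0.13 over all genes that reached 1 in both.

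Adult TPM3(E151A) muscle stood closer to TPM3(WT). There 38 of 58 members were higher and 20 lower, with a median log2 ratio of 0.20, which was 0.42 above that of all genes and 0.37 to 0.40 above it under the other scalings. By 2-fold or more 5 were higher, where 9.9% of 16865 genes were, and 6 were lower, where 19.2% were. Of the 58, 47 reached an FPKM of 1 in both genotypes, 10 in TPM3(E151A) only and 1 in TPM3(WT) only. Among the 47 the median was 0.12, with 2 higher and 6 lower by 2-fold or more. Over all genes that reached 1 in both, the median was -0.29. The members higher by 2-fold in both mutants numbered 5: slc7a9, slc43a2a, slc43a3a, slc7a3a and slc6a13l. Of these, slc7a9, slc43a3a and slc6a13l were below an FPKM of 1 in TPM3(WT) and so could only count as higher. The members lower by 2-fold in both numbered 4: slc7a6os, slc38a7, slc38a11 and slc6a16b. Being below an FPKM of 1 in TPM3(E151G), slc6a16b could only count as lower in that mutant. Both comparisons use the same TPM3(WT) value. Of the 30 members 2-fold or more apart for TPM3(E151G) against TPM3(WT), 17 kept that size under equal sums.

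Heavy chains and the light chains they carry held some of the highest ratios. slc3a1, the heavy chain of the cystine and dibasic amino acid exchanger, stood at 4.24 FPKM in TPM3(WT), at 5.97 in TPM3(E151A) and at 23.8 in TPM3(E151G). Its light chain slc7a9 had 0.980, 3.02 and 17.1, which gave log2 ratios of 1.02 and 3.19 against TPM3(WT), the second being the largest of the 58. The partners were thus both highest in TPM3(E151G), while slc7a9 was also 2-fold higher in TPM3(E151A). The locus deposited for slc7a9 (GRCz11, chr7:38235747-38419169) is shared with 17 other listed genes, so its level is less certain than that of slc3a1 (chr13:10516593-10540063), which shares its locus with none. slc7a10a, a small neutral amino acid exchanger on the same chromosome as slc7a9, had an FPKM of 3.84, 7.49 and 27.0 in the same genotype order. Its deposited locus lies 166.3 kb from that of slc7a9 and is shared with 1 other gene. With both loci shared, this is a distance between deposited intervals, not between the genes themselves. Deposited loci of other members are shared too, among them those of slc7a2 (with 4 other genes) and slc43a1a (with 2).

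Among the heavy chains of the slc3a2 type, slc3a2b had the highest level in each adult genotype. It stood at 38.4 FPKM in TPM3(WT), at 32.6 in TPM3(E151A) and at 162 in TPM3(E151G), a log2 ratio of 2.05 for TPM3(E151G) against TPM3(WT) and of 2.28 against TPM3(E151A). Its paralog slc3a2a had 20.0, 18.9 and 19.6 and so did not move with slc3a2b. A further copy listed as SLC3A2 (1 of many) had 2.21, 4.02 and 10.99. For TPM3(E151G) its log2 ratios were 1.90 against TPM3(WT) and 1.26 against TPM3(E151A), higher as for slc3a2b. The deposited locus of this copy on chromosome 7 is shared with 2 other genes, so its level is less certain. That locus lies 5.42 kb from the locus of slc3a2a. Of the light chains that pair with slc3a2 in mammals, slc7a5, the carrier of large neutral amino acids, was at or below 0.148 in all adults. slc7a8a, of similar substrates, had an FPKM of 15.3, 18.3 and 31.0. slc7a6, an exchanger of cationic for neutral amino acids, had 7.60, 7.72 and 3.59. Over light chains of either heavy chain, it was the only 1 of 5 compared that was lower in TPM3(E151G). The others were slc7a7, slc7a8a, slc7a10a and the slc3a1 partner slc7a9. With an FPKM below 1 in TPM3(WT), slc7a9 could only count as higher.

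The slc43 family was above TPM3(WT) in TPM3(E151G) as deposited. Its slc43a1 and slc43a2 members are facilitated carriers of large neutral amino acids in mammals, while the slc43a3 members were taken by family number alone. All 6 members were higher than in the controls, 4 by at least 2-fold, and the median log2 ratio was 1.32. Among the 4, slc43a3a was below an FPKM of 1 in TPM3(WT) and so could only count as higher. 1 of the 6, slc43a1a, had a small ratio of 0.28 that turned to -0.67 under equal sums and to -0.19 under equal sums without mitochondrial genes. slc43a2a, which in mammals releases branched-chain and aromatic amino acids, stood at 37.6 FPKM in TPM3(WT), at 90.0 in TPM3(E151A) and at 182 in TPM3(E151G) and was the highest member in both mutants. slc43a1a instead was lowest in TPM3(E151A), with 32.6, 13.5 and 39.8. slc43a3a had 0.955, 5.41 and 6.04, near the same level in both mutants.

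The slc6 family held the carriers known from epithelia. In TPM3(E151G) 15 of 17 slc6 members were above TPM3(WT), 9 by 2-fold or more, with a median of 1.16, and under equal sums 11 of 17 were. Of these, slc6a4a, slc6a6a, SLC6A7, slc6a13l, slc6a16a and slc6a19a.1 were below an FPKM of 1 in TPM3(WT). As deposited they entered through TPM3(E151G) alone and so could only count as higher. By the same filter slc6a16b, below 1 in TPM3(E151G), could only count as lower. Members known from kidney and gut epithelium led, with slc6a19b at 23.6 FPKM in TPM3(WT), at 26.5 in TPM3(E151A) and at 92.7 in TPM3(E151G). slc6a18, of the kidney in mammals, had 2.85, 2.39 and 11.1, and its neighbours slc6a19a.1 and slc6a19a.2 had 0.280, 1.09 and 1.94 and 1.55, 2.78 and 8.27. The deposited loci of these 3 genes lie in a row on chromosome 19, with gaps of 6.36 kb and 6.79 kb (that of slc6a18 being GRCz11 chr19:552153-657630). The locus deposited for slc6a18 is shared with 5 other genes, so its level and its distance from slc6a19a.1 are less certain. All 4 of these genes were highest in TPM3(E151G). slc6a13, a GABA transporter of liver and kidney in mammals, had 5.12, 6.53 and 24.5. Its tandem copy slc6a13l, 5.27 kb away on chromosome 6, had 0.765, 5.36 and 6.28 and so differed from TPM3(WT) in both mutants.

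Epithelial markers were read beside these carriers. Of 9 markers of intestine and kidney tubule compared, 7 were higher in TPM3(E151G) than in TPM3(WT), 5 by at least 2-fold, and the median log2 ratio was 1.94. Among the 7, slc34a1a was below an FPKM of 1 in TPM3(WT) and so could only count as higher. slc20a1a, a phosphate transporter, stood at 19.9 FPKM in TPM3(WT), at 59.4 in TPM3(E151A) and at 176 in TPM3(E151G), and slc26a1, a sulphate transporter, had 3.54, 11.8 and 27.3. By contrast fabp6, which binds bile acids in the gut, had 475, 188 and 17.5, and vil1, an actin bundler of the brush border, had 7.73, 3.38 and 3.89. No marker of the list was at 0 in an adult, and the list summed to 538.2, 293.1 and 297.4. Several markers thus moved with the epithelial carriers, whereas the most abundant 1 moved the other way, and their part in the carriers' levels was not tested.

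**Figure D2:**
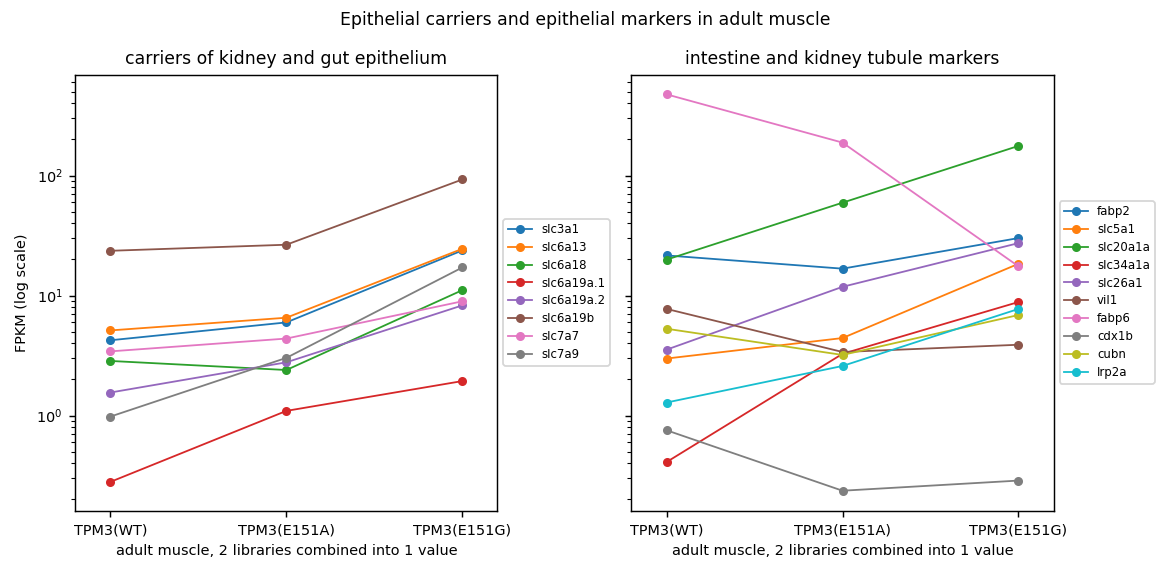
FPKM on a log axis for 8 carriers known from kidney and gut epithelium (left) and 10 markers of intestine and kidney tubule (right) in adult muscle of TPM3(WT), TPM3(E151A) and TPM3(E151G), where each point is 1 value that combines 2 libraries. All 8 carriers are highest in TPM3(E151G), led by slc6a19b at 92.7, while fabp6 goes from 475 to 17.5. The 8 were picked by hand and follow no list set beforehand. Other carriers of these epithelia may be left out, so the shared direction holds for these 8 only.

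Of the carriers of neurotransmitters in adult TPM3(E151G) muscle, 2 of 3 glutamate and 4 of 5 GABA transporters compared were above TPM3(WT), as they were under equal sums. Of the GABA transporters, slc6a13l was below an FPKM of 1 in TPM3(WT) and so could only count as higher. slc1a2b had an FPKM of 2.34, 1.23 and 5.34 in TPM3(WT), TPM3(E151A) and TPM3(E151G), and slc1a3a, another glial glutamate transporter, had 1.26, 2.85 and 4.07. The GABA transporters slc6a1b and slc6a11b had 1.03, 1.224 and 2.78 and 1.09, 1.30 and 2.32. The noradrenaline transporter slc6a2 had 2.55, 3.18 and 9.34, while the dopamine transporter slc6a3 was below an FPKM of 1 in all adults. Below TPM3(WT) in TPM3(E151G) were the glutamate transporter slc1a1 (2.25, 1.31 and 2.08) and the GABA transporter slc6a11a (2.35, 2.63 and 2.11), both of which turned above it under median-of-ratios scaling. Markers of nerve tissue were higher in the same genotype. All 7 markers of glia compared were 2-fold or more above TPM3(WT) (sums of 455.8, 755.7 and 2930), while 1 further marker, her4.1, was listed at 0 in TPM3(E151G). The list was led by mbpa, a myelin protein, at 295, 489 and 2267. Of 9 neuron markers compared 7 were higher, with a median of 0.92 and sums of 74.3, 97.3 and 169.1, and none was at 0. Of the lower ones, elavl3 was below an FPKM of 1 in TPM3(E151G) and so could only count as lower. Genes of transmitter synthesis and vesicle loading had a median of 1.17, with 8 of 10 higher, among them glula, glutamine synthetase, at 58.4, 45.4 and 141. Of these 10, gad2, gad1b and tph2 were below an FPKM of 1 in TPM3(WT) and so could only count as higher. Likewise tph1a and tph1b were below it in TPM3(E151G) and could only count as lower. The part of nerve and glial RNA in these values was not tested.

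The slc38 family divided within itself. In TPM3(E151G) 6 of 12 members were above TPM3(WT) and 6 below, 3 and 4 by at least 2-fold, and the median of 0.05 became -0.67 under equal sums and -0.34 without mitochondrial genes. slc38a4 had an FPKM of 6.59, 10.9 and 26.7 in TPM3(WT), TPM3(E151A) and TPM3(E151G), and slc38a5b, a glutamine carrier, had 10.3, 12.6 and 30.5. These higher members act at the cell surface in mammals. slc38a7 and slc38a9, which in mammals sit on the lysosome and release glutamine and sense arginine, had 12.6, 5.19 and 3.40 and 5.14, 2.91 and 1.97. slc38a6 had 13.9, 7.30 and 6.05, and slc38a11 had 7.57, 3.05 and 1.32, a log2 ratio of -1.89 that was the lowest of the 58. These 4 were highest in TPM3(WT), as was slc6a16b (4.59, 1.42 and 0.669), whereas slc38a3a, also lower in TPM3(E151G), was highest in TPM3(E151A) (1.21, 2.15 and 0.442). With an FPKM below 1 in TPM3(E151G), slc38a3a could only count as lower there. slc7a6os was the highest member in TPM3(WT) at 86.5 and had 27.9 and 35.2 in TPM3(E151A) and TPM3(E151G). All 7 oocyte markers found were 2-fold or more lower in both mutants, with medians of -2.14 and -2.72, and their part in the levels of these carriers was not tested.

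Other members differed from TPM3(WT) in both mutants, differed in 1 mutant, or lay closer to it. The cationic amino acid carrier slc7a3a had an FPKM of 2.91, 8.63 and 8.93 in TPM3(WT), TPM3(E151A) and TPM3(E151G), and slc7a2, of arginine and lysine, had 3.19, 2.92 and 7.37. A copy listed as SLC7A1 (1 of many) was low in TPM3(E151A) alone, at 5.63, 1.40 and 4.90. The glycine transporter slc6a9 had 3.00, 3.96 and 4.16, and the proton-coupled slc36a1 and slc36a4 stayed between 1.09 and 1.95. slc38a2 had 34.7, 51.5 and 51.1, and slc38a3b, a glutamine carrier, 27.8, 47.9 and 37.2, both with a ratio for TPM3(E151G) that turned below 0 under equal sums. The taurine transporter slc6a6a had 0.328, 1.14 and 3.12, and its paralog slc6a6b had 7.61, 7.75 and 9.06. Thus 1 copy of a pair could differ between genotypes where the other did not.

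**Figure D3:**
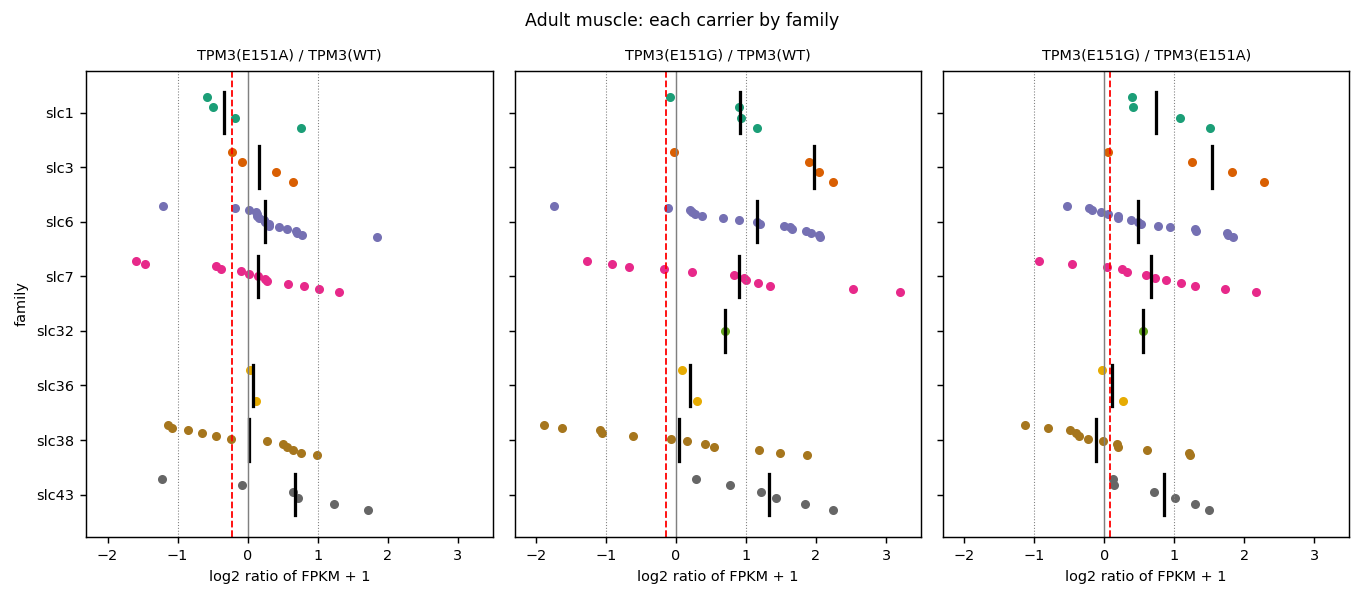
Log2 ratio of FPKM + 1 (horizontal) for each member compared, by family (vertical), in the 3 comparisons of adult muscle; black bars mark family medians, the red dashed line the median of all genes, and dotted lines 2-fold. For TPM3(E151G) against TPM3(WT) all 6 slc43 points lie above 0, whereas the 12 slc38 points lie 6 on each side.

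Between the adult mutants, 44 of 58 members were higher in TPM3(E151G) and 14 lower. By 2-fold or more 19 were higher, where 10.1% of 16715 genes were, and 1 was lower, where 9.88% were. The median was 0.45, which was 0.36 above that of all genes, but it turned to -0.20 under equal sums and to -0.06 without mitochondrial genes, and stayed 0.39 to 0.44 above that of all genes under the other scalings. slc3a2b (2.28), slc7a9 (2.17), slc6a18 (1.83) and slc3a1 (1.83) had the largest log2 ratios. The single lower member was slc38a3a, at 2.15 FPKM in TPM3(E151A) and at 0.442 in TPM3(E151G). Of the higher ones, TPM3(E151A) lay below both other genotypes for slc43a1a, slc1a2b, SLC7A1 (1 of many), slc3a2b, slc6a18, slc1a5, slc7a2 and slc43a2b. Of the 58, 54 reached an FPKM of 1 in both mutants, 1 in TPM3(E151G) only and 3 in TPM3(E151A) only. The 3, among them slc38a3a, could only count as lower. Under equal sums 5 of the 20 kept the size of 2-fold.

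In TPM3(E151A) embryos most carriers lay below TPM3(WT) by a small margin. Of 67 members compared 52 were lower and 15 higher, with a median log2 ratio of -0.28, which was 0.31 below that of all genes, while the other solute carriers had a median of -0.09. Of the 67, 61 reached an FPKM of 1 in both libraries, with a median of -0.24. The other 6 reached it in TPM3(WT) only and so could only count as lower. By 2-fold or more 3 were lower, where 0.996% of 17577 genes were, and 1 was higher, where 0.99% were. slc1a7a, a glutamate transporter of retinal cells, stood at 1.63 FPKM in TPM3(WT), at 0.142 in TPM3(E151A), at 0.580 in TPM3(E151G) and at 0.708 with l-carnitine. Markers of photoreceptors summed to 62.0, 23.6, 68.7 and 70.0 in the same order, and all 6 compared were lower in TPM3(E151A), among them rho, the rod opsin, at 32.9 and 11.5. Of these 6, gnat1, gnat2 and pde6h were below an FPKM of 1 in TPM3(E151A) and so could only count as lower. slc7a2 had 8.51 in TPM3(WT) and 3.57 in TPM3(E151A), and slc7a10a had 10.4 and 4.58. The higher member was slc1a3a, at 7.99 in TPM3(WT), at 24.3 in TPM3(E151A), at 10.3 in TPM3(E151G) and at 9.46 with l-carnitine, so that TPM3(E151A) alone stood apart. Its paralog slc1a3b did not, at 31.1 and 34.0. Glial markers summed to 1022 in TPM3(WT) and 996 in TPM3(E151A), with 6 of 8 lower. Among the 6, plp1b and mbpa were below an FPKM of 1 in TPM3(E151A) and so could only count as lower.

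The 3 heavy chains compared were all lower in TPM3(E151A) embryos, with log2 ratios of -0.43 to -0.96. slc3a2b stood at 50.1 FPKM in TPM3(WT) and at 33.9 in TPM3(E151A). slc6a1a, a GABA transporter of neurons, had 16.5 and 7.85, and slc6a1b had 48.5 and 33.5. In the slc6 family 14 of 18 were lower, with a median of -0.27, and in the list of transmitter synthesis and vesicle loading 15 of 18 were, also with a median of -0.27. slc6a3 of the family, and slc17a7a and ddc of the list, were below an FPKM of 1 in TPM3(E151A) and so could only count as lower. Markers of neurons had a median of -0.11 with 6 of 10 lower, and sums of 1713 and 1668.

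In TPM3(E151G) embryos slc6 had the lowest family median. Over all families 44 of 68 members were lower and 24 higher than TPM3(WT), with a median of -0.12, which was 0.16 below that of all genes, and the other solute carriers had a similar median of -0.14. Of the 68, 64 reached an FPKM of 1 in both libraries, with a median of -0.12. The members slc1a7a, slc7a1 and SLC38A8 (1 of many) reached it in TPM3(WT) only and so could only count as lower. By contrast slc1a7b reached it in TPM3(E151G) only and could only count as higher. The families slc1, slc3, slc32 and slc43 had medians between -0.00 and 0.20, of which those of slc3, slc32 and slc43 turned below 0 under equal sums. In slc6, 15 of 18 were lower, with a median of -0.61, and under equal sums all 18 were. In slc7 a similar share was lower, 13 of 16, with a median of -0.19, and in slc36 and slc38 2 of 2 and 7 of 12 were, with medians of -0.27 and -0.11. By 2-fold or more 2 members were lower, where 1.79% of 17581 genes were, and 0 were higher, where 0.637% were. slc6a5, the glycine transporter of inhibitory nerve endings, stood at 19.5 FPKM in TPM3(WT), at 12.6 in TPM3(E151A), at 8.15 in TPM3(E151G) and at 18.0 with l-carnitine. slc7a5, the carrier of large neutral amino acids at the blood-brain barrier, had 22.5, 14.0, 8.99 and 18.6 in the same order. Both were thus lowest in untreated TPM3(E151G) and near TPM3(WT) in the treated library. Under equal sums the number of members 2-fold or more lower went from 2 to 15. The median of all genes was then -0.29, and no all-gene share was computed under that scaling. The 15 are thus not read as a result about the carriers.

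A limit of 1.5-fold took 18 members as lower in TPM3(E151G) embryos, 10 of them from slc6, where 9.06% of the 17581 genes compared were. Among the transmitter carriers, slc6a11b stood at 41.3 FPKM in TPM3(WT), at 26.0 in TPM3(E151G) and at 41.3 with l-carnitine, and slc6a1a had 16.5, 10.6 and 17.5. slc6a9, the other glycine transporter, had 51.5, 37.7 and 55.2 and was not among the 18. The neuronal carriers of neutral amino acids slc6a15 and slc6a17 had 12.4, 5.79 and 10.4 and 2.70, 1.34 and 2.94. The serotonin transporter slc6a4a had 4.06, 2.09 and 3.41, and both taurine transporters were lower, slc6a6a at 3.46, 1.63 and 2.84 and slc6a6b at 3.43, 1.87 and 3.49. The dopamine and noradrenaline transporters slc6a3 and slc6a2 were not among the 18, at 1.26, 1.58 and 1.098 and at 1.82, 1.82 and 1.93. Outside slc6 the 18 held slc1a5, slc1a6, slc1a7a, slc7a1, slc7a2, slc7a5, slc38a3a and slc38a9. Of these, slc1a7a and slc7a1 were below an FPKM of 1 in TPM3(E151G) and so could only count as lower. Of 10 neuron markers 5 were lower, with a median of 0.06 and sums of 1713 in TPM3(WT) and 1863 in TPM3(E151G). elavl3, the lowest of them in ratio, had 338, 226 and 379 in TPM3(WT), TPM3(E151G) and treated TPM3(E151G). gap43, the highest in ratio, had 36.6, 59.9 and 43.8. In the list of transmitter synthesis and vesicle loading 11 of 18 were lower, with a median of -0.13. slc18a2 and tph1b, below an FPKM of 1 in TPM3(E151G), could only count as lower. The lowest ratios were those of glsa, a glutaminase, with 17.5, 8.87 and 18.4, and slc17a6a, a vesicular glutamate transporter, with 10.3, 5.42 and 10.3. The most abundant genes of the list in TPM3(WT), glulb, gad2, glula and gad1b, did not fall alike. They had 89.3, 37.4, 36.7 and 30.6 in TPM3(WT) and 106, 35.6, 39.6 and 31.1 in TPM3(E151G). The part of neuronal RNA in the carriers' levels was not tested. Markers of skeletal muscle were higher in 12 of 12, with sums of 34349 and 47509, and their part in the carriers' FPKM was not tested.

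With l-carnitine the TPM3(E151G) library lay close to TPM3(WT) for nearly all carriers. Against TPM3(WT), 38 of 68 members were lower and 30 higher, with a median of -0.02, and by 2-fold or more 0 were higher and 0 lower, where 1.97% and 0.384% of 17731 genes were. Against untreated TPM3(E151G), 43 of 67 were higher, with a median of 0.16, which was 0.20 above that of all genes, and the other solute carriers had a median of 0.13. Of the 67, 65 reached an FPKM of 1 in both libraries. The other 2 reached it with l-carnitine only and so could only count as higher. By 2-fold or more 1 member was higher (slc6a5), where 2.55% of 17585 genes were, and 0 were lower, where 0.199% were. In slc6 15 of 18 were above the untreated library, with a median of 0.53. This family had the lowest median against TPM3(WT) in that same untreated library, which by itself favours a higher value in a further library. Of the 18 members at least 1.5-fold lower in untreated TPM3(E151G), 17 lay less than 1.5-fold from TPM3(WT) after l-carnitine, the exception being slc1a7a, and over all genes 1431 of 1593 were (89.8%). The comparison that chose the 18 and the one they are read on share the TPM3(WT) library, and the share of all genes stands beside that of the members for this reason.

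**Figure D4:**
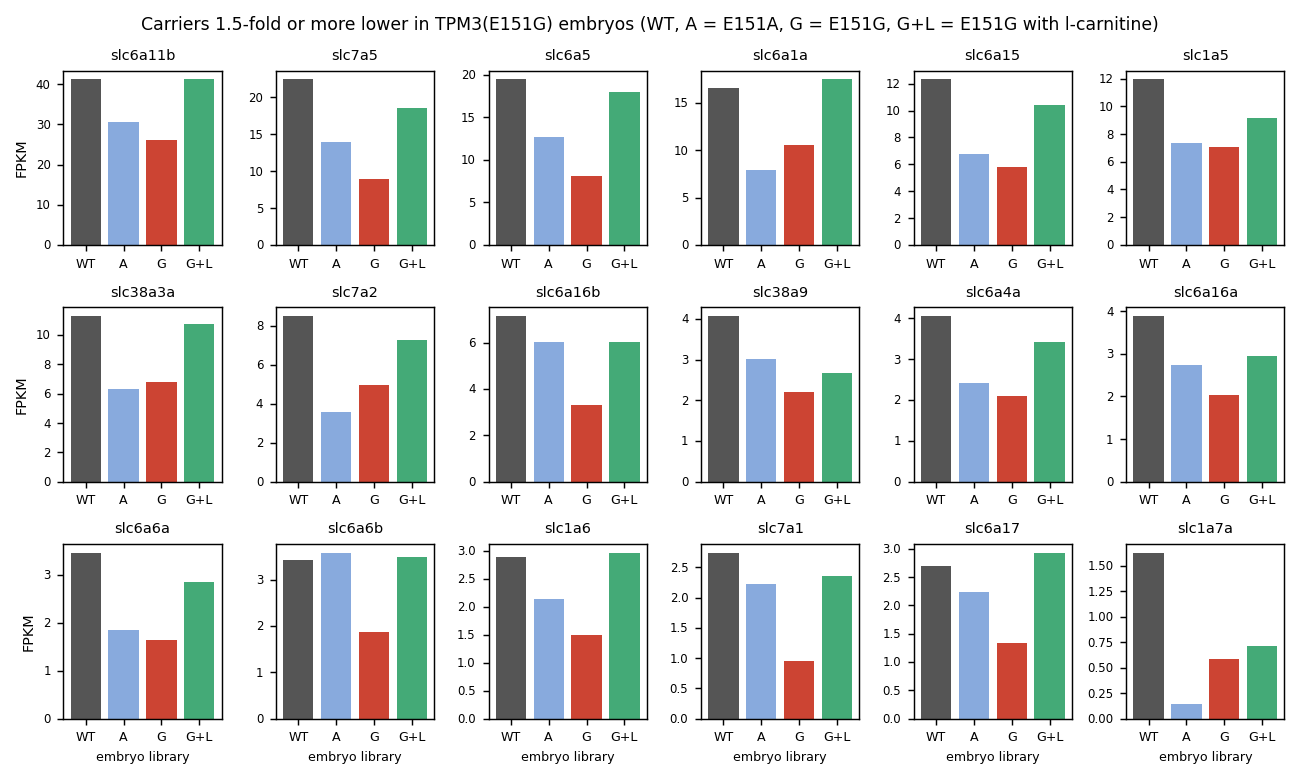
FPKM (bars from 0) of the 18 members at least 1.5-fold lower in TPM3(E151G) than in TPM3(WT) embryos, in the 4 embryo libraries, each bar 1 library. In all 18 panels the bar of TPM3(E151G) with l-carnitine is above that of untreated TPM3(E151G), for slc6a5 at 18.0 against 8.15. The 18 were chosen by a low value in the untreated library. That choice by itself favours a higher bar in a further library, and no all-gene share was computed for this reading.

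By a limit of 1.5-fold, 2 members were higher with l-carnitine than in TPM3(WT), slc38a4 and slc1a7b. slc38a4, a carrier of neutral and cationic amino acids that is abundant in mammalian liver, stood at 29.3 FPKM in TPM3(WT), at 36.2 in TPM3(E151A), at 33.2 in TPM3(E151G) and at 58.6 with l-carnitine, a log2 ratio of 0.98 against TPM3(WT) and so just under 2-fold. Markers of liver summed to 296.5, 334, 423.3 and 1680 in the same order, and all 9 were 2-fold or more higher with l-carnitine than in untreated TPM3(E151G). Of the 9, ttr was below an FPKM of 1 in untreated TPM3(E151G) and so could only count as higher. slc1a7b, a glutamate transporter of low level, stood at 0.681, 0.316, 1.03 and 1.93, a log2 ratio of 0.80 that the added 1 FPKM makes smaller. Being below an FPKM of 1 in TPM3(WT), slc1a7b could only count as higher. The neighbour of slc38a4 on chromosome 4, slc38a2, had 37.9, 34.9, 34.0 and 38.1. The part of liver RNA in the level of slc38a4 was not tested.

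**Figure D5:**
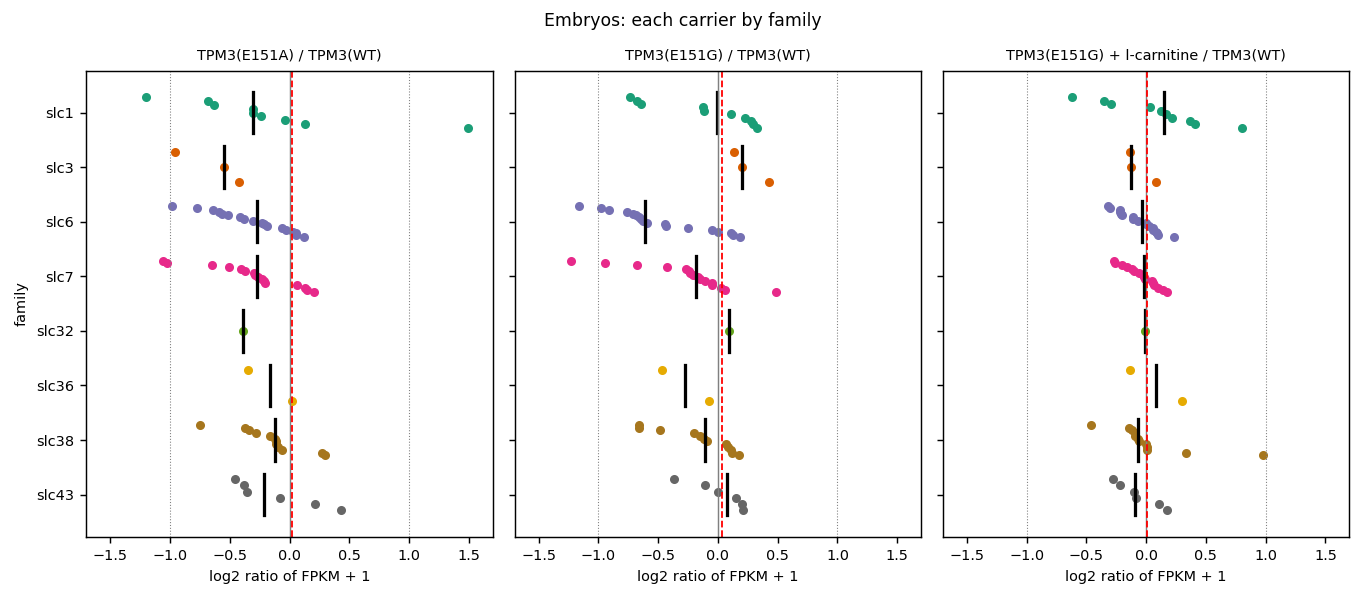
Log2 ratio of FPKM + 1 (horizontal) for each member compared, by family (vertical), for embryos of TPM3(E151A), of TPM3(E151G) and of TPM3(E151G) with l-carnitine, each against TPM3(WT); black bars mark family medians, the red dashed line the median of all genes, and dotted lines 2-fold. The slc6 median is -0.27, -0.61 and -0.03 in the 3 panels.

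Genes that sense or respond to amino acid supply were set beside the carriers. In the list of the amino acid starvation response, which is driven by the transcription factor ATF4, 9 of 16 were higher in adult TPM3(E151G) than in TPM3(WT) and 7 lower, 5 in each direction by 2-fold or more, with a median of 0.51. chac1, a glutathione-degrading enzyme induced in this response, stood at 393 FPKM in TPM3(WT), at 463 in TPM3(E151A) and at 1124 in TPM3(E151G), whereas phgdh and psat1, enzymes of serine synthesis, had 16.5, 7.03 and 3.86 and 9.50, 6.56 and 3.40. The list thus held members far above and far below TPM3(WT). In embryos 11 of 16 were higher in each mutant, the median being 0.15 for TPM3(E151A) and 0.12 for TPM3(E151G), and 12 of 16 were lower with l-carnitine than without it, with a median of -0.12. Among 19 genes of amino acid sensing by mTORC1, 10 were higher in adult TPM3(E151G), with a median of 0.01, led in level by sesn1, a leucine sensor family member, at 50.6, 118 and 335. In embryos that list had medians of -0.02 and 0.10 in the mutants. Of a list of carriers outside the 8 families 8 were compared in adults, with a median of 0.35 for TPM3(E151G) and -0.08 for TPM3(E151A). The list was set up for amino acid carriers but also holds carriers of peptides (slc15) and organic cations (slc22). For TPM3(E151G) slc22a4 had its highest log2 ratio (2.91) and slc25a12 its lowest (-0.42). slc25a12, the aspartate-glutamate carrier of mitochondria, had 64.2, 43.5 and 47.8 FPKM.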

How the data were processed

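Per the methods and the submitters' processing notes, the authors used Trimmomatic 0.36 for trimming and HISAT2 for alignment, with the genome build GRCz11 and the Ensembl 99 annotation. The notes list DESeq2 1.22.2, bcl2fastq 2.20 and featureCounts 1.6.3 as well, with no role, and the tool that made the deposited FPKM was not given in those sources. A strand-specific library kit is named in the methods, but whether counting used strand is not stated, so slc7a6 and slc7a6os may share reads. The deposited tables also hold the authors' ratios, log2 ratios, p-values, q-values and lists of called genes, which were not used. Per-sample columns without a sample numbered 0.

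From the deposited FPKM, the log2 ratio of FPKM + 1 was computed in each comparison's own table over genes that reached 1 FPKM in either condition, and 2-fold or more was counted. Values up to 1e-05 FPKM count as listed at 0. Counts are not in these tables, so depth is unknown and no interval is given. A planned limma test was not run, as adults have 1 FPKM per genotype. The members, 4 pathway lists and 10 lists of cell type markers were chosen with earlier results of these data known.

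Named members were those 2-fold apart in a comparison (the 8 furthest per direction where over 15 were) and the 4 of highest mean FPKM per family, 43 in all. Others, and markers beyond the 4 most abundant of a list, were named after their values were seen. IDs of all 82 genes were found in the gene name table, 43 with the same symbol. The functions were tested on simulated data. Python 3.11.15, numpy 2.4.6, pandas 2.3.3 and matplotlib 3.10.9 were used. Alternatives were a pseudocount of 0.1, no FPKM minimum or 5, a 1.5-fold limit, equal sums with and without mitochondrial genes, and median-of-ratios scaling. Added after seeing the data were leaving out slc7a6os and requiring an FPKM of 1 in both conditions.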

Additional observations from a re-analysis of the deposited data

Results flagged for a closer look

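Several values lay on opposite sides of TPM3(WT) in adults and embryos of the same mutant. These differences were not tested, since each rests on 1 value per condition.

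For TPM3(E151A), the median log2 ratio of the members was 0.20 in adults and -0.28 in embryos. SLC3A2 (1 of many), a heavy chain, had 0.65 and -0.96, the taurine transporter slc6a6a 0.69 and -0.64, and the neutral amino acid exchanger slc7a10a 0.81 and -1.03.

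For TPM3(E151G), the median was 0.86 in adults and -0.12 in embryos. slc1a5, a carrier of neutral amino acids, had 0.90 and -0.68, the GABA transporter slc6a11b 0.67 and -0.65, slc6a16a 1.16 and -0.69, slc6a6a 1.63 and -0.76, and the cationic amino acid carrier slc7a2 1.00 and -0.68. The taurine transporter slc6a6a thus appears for both mutants, which were read against the same TPM3(WT) values. In adult TPM3(WT) slc6a6a (0.328) and slc6a16a (0.838) were below an FPKM of 1 and so could only count as higher in adults.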

How the results depend on the processing

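No paired analysis was possible because the files give 1 combined FPKM per adult genotype, and leaving out each replicate was not run for the same reason. Of 182 alternative values, 93 counts stayed within 1.5 times and 36 medians within 0.1 (log2), while 33 counts and 18 medians moved and 2 medians reversed. Unless a cause is given by the setting itself, the cause was not tested.

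The median for adult TPM3(E151G) against TPM3(E151A) reversed to -0.20 under equal sums and to -0.060 without mitochondrial genes, and was 0.35 under median-of-ratios scaling, 1.04 with a minimum FPKM of 5, 0.14 with none and 0.67 with a pseudocount of 0.1. For adult TPM3(E151G) against TPM3(WT) it was 0.040 under equal sums, 0.51 without mitochondrial genes, 1.17 with a minimum of 5, 0.28 with none and 1.09 with a pseudocount of 0.1. For adult TPM3(E151A) it was 0.33 without mitochondrial genes, 0.46 under median-of-ratios scaling and 0.093 with a minimum of 5. Under equal sums, and then without mitochondrial genes, it was -0.46 and -0.49 for TPM3(E151A) embryos, -0.45 and -0.46 for TPM3(E151G) embryos, and 0.39 and 0.42 for treated against untreated embryos.

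Counts 2-fold or more moved as follows, with no all-gene share computed under the other scalings. Members higher in adult TPM3(E151A) numbered 10 without mitochondrial genes, 8 under median-of-ratios scaling, 10 with a pseudocount of 0.1, 16 at 1.5-fold and 2 with an FPKM of 1 in both conditions, and those lower 2 under median-of-ratios scaling. In adult TPM3(E151G) 11 were higher than TPM3(WT) under equal sums. Against TPM3(E151A) 4 were higher under equal sums and 8 without mitochondrial genes, and 7, 5 and 2 were lower under equal sums, without mitochondrial genes and under median-of-ratios scaling, 3 with a pseudocount of 0.1, 3 at 1.5-fold, 0 with a minimum of 5 and 0 with an FPKM of 1 in both. Lower members in TPM3(E151A) embryos numbered 5, 7, 6 and 12 under equal sums, without mitochondrial genes, with a pseudocount of 0.1 and at 1.5-fold, and in TPM3(E151G) embryos 15, 17, 7 and 18. With l-carnitine against without, 6, 8, 2, 4 and 13 were higher under equal sums, without mitochondrial genes, under median-of-ratios scaling, with a pseudocount of 0.1 and at 1.5-fold. Against TPM3(WT), 1 was higher and 1 lower with a pseudocount of 0.1, and 2 and 1 at 1.5-fold.

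Requiring an FPKM of 1 in both conditions and leaving out slc7a6os were chosen after seeing the data. Depth is unknown and each condition has 1 value, so differences cannot be set against a spread between animals.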
